A study of Homo sapiens with 2 samples.

Results

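The cyclins, the cyclin-dependent kinases (CDKs), their inhibitors, the CDC25 phosphatases and the RB and E2F families form the set described here, picked out of the table by gene symbol. Of 16978 genes in the deposited table, 55 carried such a symbol and were kept. A further 2 genes that match the symbol pattern were left out. By role, the 55 comprised 4 G1 and S phase cyclins, 3 S, G2 and M phase cyclins, 4 cell cycle CDKs, 15 cyclins and CDKs of the CDK-activating kinase and of transcription, 8 other CDKs and CDK-like kinases, 4 other cyclins, 4 CDK inhibitors, 2 RB family genes, 8 E2F and DP factors and 3 CDC25 phosphatases. Their values were compared between parental SKOV3 cells and a derivative resistant to the PARP inhibitor olaparib.

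Cyclins bind CDKs and switch them on at set points of the cell cycle. Cyclin D with CDK4 or CDK6, and then cyclin E with CDK2, phosphorylate the RB family proteins, which release E2F transcription factors and so allow the genes of DNA replication to be transcribed. Cyclin B with CDK1 drives mitosis, CDK inhibitors such as p27 hold the kinases back, and CDC25 phosphatases remove the inhibitory phosphates from them. A second branch of the family works in transcription and splicing: CDK7 with cyclin H activates other CDKs and phosphorylates RNA polymerase II, CDK9 pairs with cyclin T, CDK8 with cyclin C, CDK13 with cyclin K, and CDK11 with the L cyclins. In ovarian carcinoma the cyclin E1 gene is known as a recurrent site of gene amplification.

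SKOV3 is an established human ovarian carcinoma line, labelled as wild type in both groups. The parental group is 1 library with no treatment. The resistant group is 1 library of cells held in olaparib at 0.5 times its IC50 for at least 3 months, and the labels do not say whether it is a clone or a pool. Total RNA was depleted of ribosomal RNA before sequencing. With 1 library per group no difference below has a replicate check, no test was made, and each comparison describes these 2 libraries.

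The table gives 1 normalized expression value per transcript and library, called the listed value here. Its unit is not named, and the values summed to 47632 in the resistant library against 46879 in the parental one. Listed values were summed per gene, and the log2 ratio is log2(resistant + 1) minus log2(parental + 1), on which differences of low genes come out too small. Genes whose mean listed value was 1 or more are called expressed, which held for 29 of the 55 members and 5767 genes in all. The epithelial keratin genes KRT8 and KRT7 were listed at 318 and 73.3 in the resistant and 166 and 62.6 in the parental library, and the receptor gene ERBB2 at 3.84 and 5.37. The epithelial adhesion gene EPCAM was near 0 (0.00143 resistant, 0.0412 parental), PAX8, a Müllerian lineage factor, was at 0.489 and 0.0738, and the fibroblast gene COL1A1 was at 0.203 and 0.198. The keratin KRT18 was at 5.83 in the resistant library against 14.3 in the parental one. WT1, MUC16 and the immune and endothelial markers PTPRC, CD68, PECAM1 and VWF were looked up and had no listed value under these symbols. Nor had the fibroblast markers COL1A2 and DCN.

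The members' values come from transcripts annotated as non-coding and do not stand for their mRNAs. For the marker genes above and the other genes named below the transcript class was not tabulated. Their values are therefore not read as mRNA levels either. Of 219 listed member transcripts, 140 (63.9%) belong to the retained-intron class of GENCODE release 29, 77 (35.2%) are processed transcripts without an open reading frame, and 2 were not found there. A single transcript is listed for 14 members, and 16 are listed for CCNL1. Of the 140 retained-intron transcripts, 134 run unspliced through at least 1 splice site of the gene's principal coding transcript, and 41 hold a whole intron. A median of 40.9% of their exonic bases lie in introns of that coding transcript, against 19.3% for the processed transcripts. Some transcripts have no such base: in CDK2-205, CCNH-202, CDK4-210 and CDKN1B-204 the share was 0%. Where such transcripts share exons with the coding transcript, their reads cannot be told apart from mRNA reads by sequence.

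The splice sites that these transcripts run through are shown for those on which the results below turn. Each window holds 10 exon and 20 intron bases, read 5′ to 3′ on the gene's strand from the GENCODE release 29 transcript on GRCh38, and the capitals mark the first or last 2 bases of the intron.
CDK4-208, intron 2 donor, chr12:57751480-57751509, minus strand: atgttgtccgGTgagaaggtggtggagggt
CDK4-213, intron 5 acceptor, chr12:57749495-57749524, minus strand: tatatcccttctcaccttAGgcctctcttc
CDK10-207, intron 7 donor, chr16:89693317-89693346, plus strand: gtgaagacagGTgggtgcaacttgggccag
CDK13-218, intron 10 acceptor, chr7:40078700-40078729, plus strand: ttgtaatcctctcatgctAGtattcctgca
CCNE1-204, intron 8 donor, chr19:29821808-29821837, plus strand: gattatgaagGTgggttccagtgaattttc
RBL2-206, intron 13 donor, chr16:53465593-53465622, plus strand: atgtgaagagGTttgtgaaaataacatctt
E2F4-208, intron 1 donor, chr16:67192353-67192382, plus strand: cctcaagctgGTgcggcctgggctaagggg
E2F4-208, intron 2 acceptor, chr16:67192989-67193018, plus strand: gccccactccctgggctcAGgggtgtgggg
E2F4-203, intron 3 donor, chr16:67193161-67193190, plus strand: agaacagctgATatcctcctggcggtccct
E2F4-203, intron 3 acceptor, chr16:67193452-67193481, plus strand: attctccttaaccctcacACtttggcctac
E2F6-208, intron 4 donor, chr2:11451631-11451660, minus strand: aaaatgaaagATatcctttaagtctatacc
E2F2-202, intron 4 acceptor, chr1:23519121-23519150, minus strand: tcttgactctcctgccctACgctggcctat

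Such sites of introns between coding exons were counted once each over the member transcripts with a mean listed value of at least 1. CCNE2-203 was left out of this count. Of these sites, 27 of 29 donors began with GT and 26 of 28 acceptors ended with AG, the common intron ends. The 4 exceptions were sites of 3 introns of E2F genes, with AT at the donor or AC at the acceptor. E2F genes are known to carry introns removed by the minor, U12-type spliceosome, a class that includes introns with AT and AC ends. E2F4-203 holds the whole of such an intron, 301 bases at chr16:67193171-67193471, and was listed at 5.06 in the resistant library against 12.2 in the parental one. E2F2-202 enters one from its 3′ end and was at 2.17 and 0.494. E2F6-208 was at 3.41 and 2.90, and E2F6-209, which runs through the same donor, at 1.08 and 1.32. These transcripts therefore differed in both directions between the libraries.

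As a group the members did not stand apart from the rest of the table. At least 2-fold higher in the resistant library were 2 of 29 expressed members (6.90%), beside 8.50% of all expressed genes, and at least 2-fold lower were 2 of 29 (6.90%), beside 4.37%. The median log2 ratio was 0.16 over the 29 members and 0.16 over all expressed genes. The middle 50% of all expressed genes lay between −0.22 and 0.56. Of the 29 members, 19 had a ratio above 0 and 10 below 0. The 2 higher members were CCNE1 and E2F2, the 2 lower ones CDK10 and E2F4, and RBL2 fell just short of the threshold at 0.99. Relative to the median of all expressed genes, which a rescaling of the resistant values by 0.855 sets to 0, no member was 2-fold higher and 2 were 2-fold lower. All expressed genes then split into 5.46% higher and 6.02% lower.

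**Figure D1:**
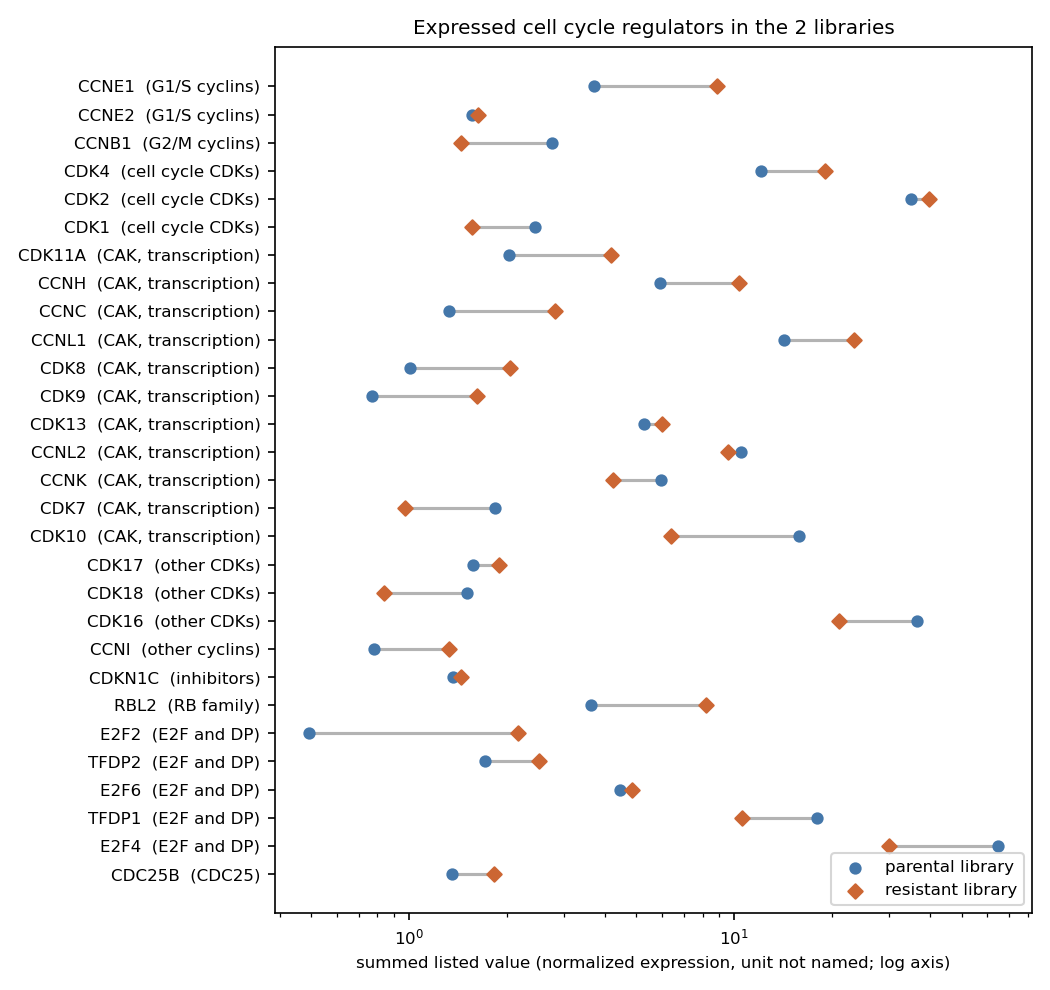
Summed listed value (log axis, normalized expression with no unit named) of the 29 expressed members in the parental library (circles) and the resistant library (diamonds), ordered by role. The lines join the 2 values of a gene. E2F4 was the highest of them in the parental library at 64.5 and CDK2 in the resistant library at 39.7.

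**Figure D2:**
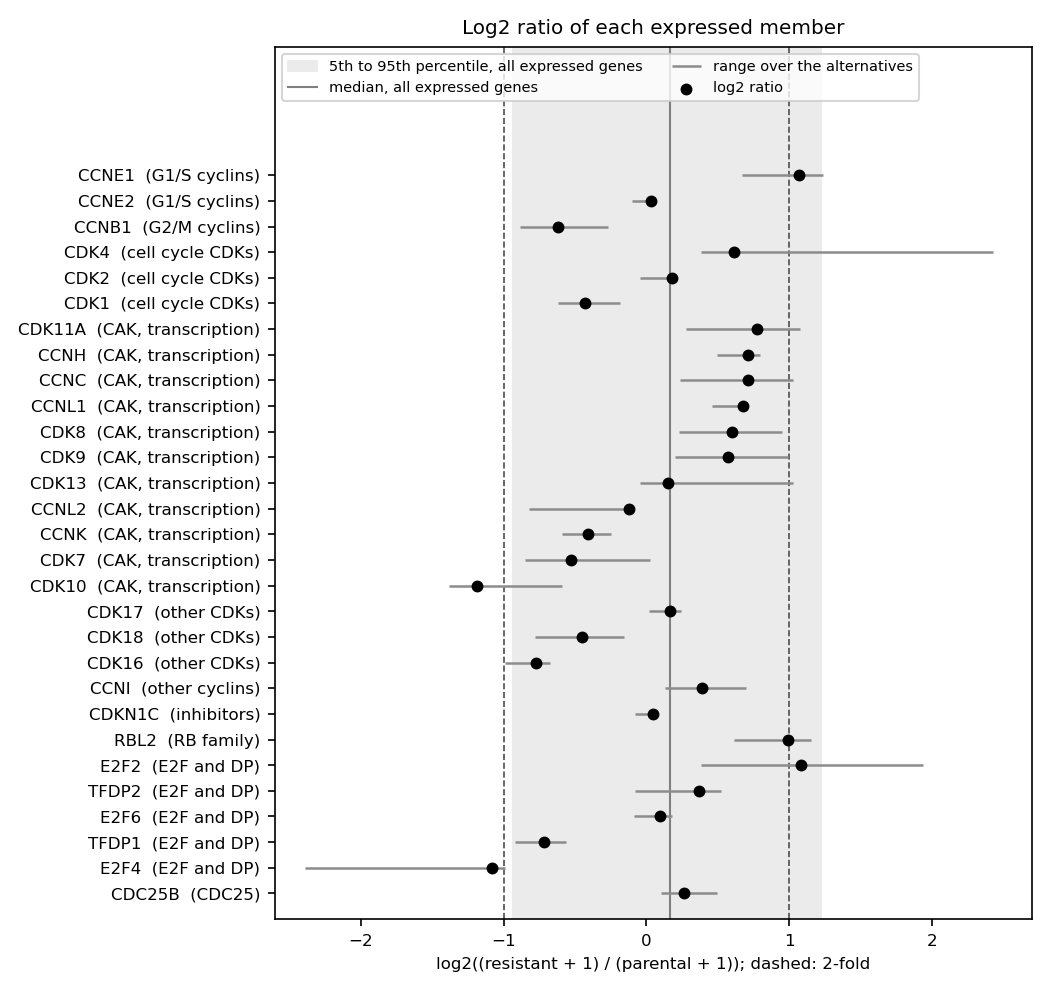
Log2 ratio of each expressed member (points) with its range over the alternatives of processing (lines), over the 5th to 95th percentile of all expressed genes (grey, −0.93 to 1.22) and their median (vertical line). Dashed lines mark 2-fold. CDK10 at −1.18 and E2F4 at −1.08 lie below the grey band, and no member lies above it.

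Among the G1 and S phase cyclins, CCNE1, which encodes cyclin E1, was listed at 8.86 in the resistant library against 3.71 in the parental one, a log2 ratio of 1.07. CCNE2, which encodes the related cyclin E2, was at 1.63 and 1.57 (0.036, and −0.10 after the rescaling). The 2 cyclin E genes thus differed in their ratio although both partner CDK2. The D cyclins, which partner CDK4 and CDK6, were below the threshold of expression: CCND1 was at 0.763 and 0.124, and CCND3 at 0.872 and 1.06. For CCND1, each of its 4 listed transcripts had a count of 0 in the parental library by the deposited fold change (against 15 to 42 in the resistant library), so no fold is given. Summed over the 4 genes, these cyclins were at 12.1 in the resistant library against 6.45 in the parental one.

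Of the 3 mitotic cyclins, only CCNB1 was expressed, so no direction is given for the group. CCNB1, the cyclin B1 partner of CDK1, was at 1.44 in the resistant library against 2.75 in the parental one (−0.62). CCNF, the substrate receptor of a ubiquitin ligase, was at 0.474 and 1.28, under the mean of 1. CCNB2, which encodes cyclin B2, was at 0.356 and 0.275, also under that mean and in the other direction. CDK1, the mitotic kinase itself, was at 1.56 and 2.45 (−0.43). The summed value of these 3 cyclins was 2.27 in the resistant library against 4.30 in the parental one.

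CDK2, the partner of cyclins E and A, was the highest member in the resistant library. It was listed at 39.7 there and 35.0 in the parental library (0.18, and −0.044 after the rescaling). CDK4, the partner of the D cyclins, was at 19.0 and 12.1 (0.61), and its transcripts differed in opposite directions, as described further on. CDK4-213 held 13.3 and 1.67 of this, and all of its exonic bases overlap exons of TSPAN31, a gene on the other strand. Reads of both genes cannot be told apart there, so the direction of the CDK4 sum is uncertain. CDK4-208, without such an overlap, was at 2.33 and 10.1. CDK6, the other D cyclin partner, was at 0.103 and 0.0314. Cell cycle CDKs summed to 60.4 in the resistant library against 49.6 in the parental one, and the direction of that sum likewise depends on CDK4-213.

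The CDK-activating kinase and the transcription branch held 15 genes, 11 of them expressed, with 7 ratios above 0 and 4 below. Their median log2 ratio was 0.57, from −1.18 to 0.78. Subunits of one complex did not always differ alike. In the CDK-activating kinase, CCNH (cyclin H) was at 10.4 in the resistant library against 5.93 in the parental one (0.71), whereas CDK7, its kinase, was at 0.973 and 1.84 (−0.52). The CDK7 difference sits in 1 transcript, CDK7-210, at 0.0612 and 0.959 with a resistant count of 0, and CDK7-208 was at 0.838 and 0.818. In the Mediator kinase module, CCNC (cyclin C) was at 2.81 and 1.33 (0.71) and its kinase CDK8 at 2.04 and 1.01 (0.60), so both were higher in the resistant library. CDK19, the CDK8 paralog, was at 0.423 and 0.154.

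The elongation kinase CDK9 was at 1.62 in the resistant library against 0.768 in the parental one (0.57). Its cyclins lay under the threshold, with CCNT1 at 0.745 and 0.387 and CCNT2 at 1.17 and 0.577. For the kinase that pairs with cyclin K, CDK13 was at 5.98 and 5.29 (0.15, and −0.042 after the rescaling) and CCNK at 4.24 and 5.96 (−0.41). The CCNK difference sits in CCNK-207, at 2.67 and 4.52, and 34.0% of its exonic bases overlap exons of CCDC85C on the other strand. Of the splicing-linked L cyclins, CCNL1 was at 23.3 and 14.2 (0.68) and CCNL2 at 9.57 and 10.5 (−0.12). CDK11A, which works with them, was at 4.19 and 2.03 (0.78), a value that is uncertain because its near-identical copy CDK11B can share its reads. CDK20, a kinase related to CDK7, was at 0.830 and 0.530.

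CDK10, a kinase activated by cyclin M, had the lowest ratio of all members. It was listed at 6.40 in the resistant library against 15.8 in the parental one (−1.18), and 2.93% of expressed genes had a lower ratio. Among the other CDKs, the cyclin Y partner CDK16 was at 21.0 and 36.5 (−0.77), its relative CDK18 at 0.836 and 1.51 (−0.45) and CDK17 at 1.88 and 1.57 (0.16). CDK16-217 carried most of the CDK16 value, at 13.0 in the resistant library against 23.9 in the parental one. CCNI, which encodes the divergent cyclin I, was the one expressed gene among the other cyclins, at 1.33 and 0.779 (0.39). In these groups CCNY, CCNYL1, CCNI2, CDK5, CDK14, CDKL1 and CDKL3 were below the threshold, with listed values between 0.000272 and 1.08.

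The 4 CDK inhibitors of the set had low values. CDKN1C, which encodes p57, was the one expressed inhibitor, at 1.45 in the resistant library against 1.37 in the parental one (0.048, and −0.082 after the rescaling). CDKN1B, the p27 gene, was at 0.556 and 0.0786, and its single listed transcript had a count of 162 in the resistant library against 0 in the parental one. CDKN2A, the gene of p16 and ARF, was at 0.790 and 0.624, and CDKN2B, the p15 gene, at 0.179 and 0.121. These values are listed for non-coding transcripts at the loci and are not read as inhibitor mRNA or protein. The CDKN1B transcript has no intronic bases, so its reads cannot be told apart from mRNA reads where exons are shared.

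In the RB family, RBL2, which encodes p130, the pocket protein of resting cells, was at 8.21 in the resistant library against 3.64 in the parental one (0.99). RB1, the retinoblastoma gene, was at 0.808 and 0.647 and under the threshold. Most of the RBL2 difference sits in RBL2-206, at 5.00 and 1.78, whose 3′ end runs into intron 13 through the donor shown above. RBL2-205, in the next stretch of the gene, was at 2.01 and 0.973, so both leading transcripts were higher in the resistant library.

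The E2F and DP factors held the expressed members with the highest and the second lowest ratio. E2F2, one of the activator E2Fs, was at 2.17 in the resistant library against 0.494 in the parental one (1.09), and 93.0% of expressed genes had a lower ratio. It has 1 listed transcript, with counts of 312 and 103. E2F4, a repressor E2F that acts with p130, was at 30.01 in the resistant library against 64.5 in the parental one (−1.08). E2F6, a repressor that does not bind RB proteins, was at 4.84 and 4.46 (0.10, and −0.087 after the rescaling). TFDP1, the usual dimer partner of E2F proteins, was at 10.6 and 18.0 (−0.71), and its relative TFDP2 at 2.51 and 1.71 (0.37). TFDP1-204, at the 5′ end of its gene, carried 93.4% of the TFDP1 value in the resistant library against 95.6% in the parental one. Under the threshold, E2F5 was at 0.162 and 0.00231, and the atypical repressors E2F7 and E2F8 were at 0.964 and 0.682 and at 0.114 and 0.127. The family summed to 51.3 in the resistant library against 89.98 in the parental one, most of the gap being E2F4.

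CDC25B, a phosphatase that activates CDK1 at entry into mitosis, was at 1.82 in the resistant library against 1.36 in the parental one (0.26). Its transcripts differed in both directions. CDC25B-207 was at 0.849 and 0.506 and CDC25B-209 at 0.968 and 0.381. CDC25B-206 was at 0.00561 and 0.353 and CDC25B-208 at 0.00124 and 0.118, each with a resistant count of 0. CDC25A, which acts at the start of S phase, was at 0.214 and 0.167, and CDC25C at 0.0235 and 0.194.

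Gene sums hid opposite differences between transcripts. Of 45 member transcripts with a mean of at least 1, 7 (15.6%) were at least 2-fold higher in the resistant library, beside 11.8% of all such transcripts, and 7 (15.6%) were at least 2-fold lower, beside 7.42%. Their median log2 ratio was 0.044, and that of all such transcripts 0.15. In 2 of 12 members with 2 or more such transcripts (16.7%), CDK4 and CDK13, 1 transcript was 2-fold higher and another 2-fold lower, beside 4.88% of 1456 genes. The transcript with the largest value differed between the libraries in 9 of 26 members with 2 or more transcripts (34.6%), beside 34.9% of all such genes. These members were CCNL1, CDC25B, CDK4, CDK7, CDK10, CDK11A, CDK13, E2F4 and TFDP2.

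CDK4 had the largest move among its transcripts. CDK4-208, at chr12:57750827-57752364 in the 5′ part of the gene, keeps intron 2 whole and was listed at 2.33 in the resistant library against 10.1 in the parental one (−1.74). CDK4-213, at chr12:57748411-57749795, starts inside intron 5 and was at 13.3 and 1.67 (2.43). In the authors' deposited table their log2 fold changes were −2.41 and 2.71. CDK4-210, a processed transcript, was at 3.35 and 0.298, with a parental count of 0. CDK4-208 thus held 83.8% of the CDK4 value in the parental and 12.2% in the resistant library, and CDK4-213 held 13.8% and 70.1%. In all, 71.5 percentage points of the CDK4 value sat on other transcripts in the resistant library, and 98.5% of genes with 2 or more transcripts had a smaller shift (median 20.5 over all such genes and 17.8 over the members).

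The strand of CDK4-213 cannot be read from these values. All of its exonic bases (100%) and 28.0% of those of CDK4-210 overlap exons of TSPAN31, a tetraspanin gene on the other strand, and neither the labels nor the table say whether the counting used strand. Reads of the 2 genes can therefore not be told apart there. TSPAN31 itself was listed at 0.240 in the resistant library against 1.71 in the parental one, the opposite direction to CDK4-213. That value is a sum over the listed TSPAN31 transcripts, and the source of the reads over the shared exons was not tested. No exon of another gene overlaps CDK4-208. Of the 45 transcripts, 8 had some exonic overlap with a gene on the other strand. For CDK2-205, which carried 90.6% of the CDK2 value in the resistant library against 93.0% in the parental one, it was 23 bases, with PMEL.

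E2F4 is a short gene, and 6 of its 8 listed transcripts had a value above 1 in at least 1 library. E2F4-208, at chr16:67192185-67198917, spans the gene, keeps introns 1 and 2 whole, and was at 6.38 in the resistant library against 37.7 in the parental one (−2.39), with counts of 2031 and 17372. E2F4-202, at chr16:67192215-67194918, keeps intron 2 but splices intron 1, and was at 14.2 and 8.09 (0.75). E2F4-203, with intron 3, was at −1.13 on the log2 ratio scale and E2F4-211, which starts inside intron 4, at −1.03, from 1.58 and 4.25. The leading E2F4 transcript was therefore E2F4-208 in the parental library, with 58.4% of the value, and E2F4-202 in the resistant library, with 47.5%. The authors' deposited table gives log2 fold changes of −2.85 for E2F4-208 and 0.53 for E2F4-202.

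**Figure D3:**
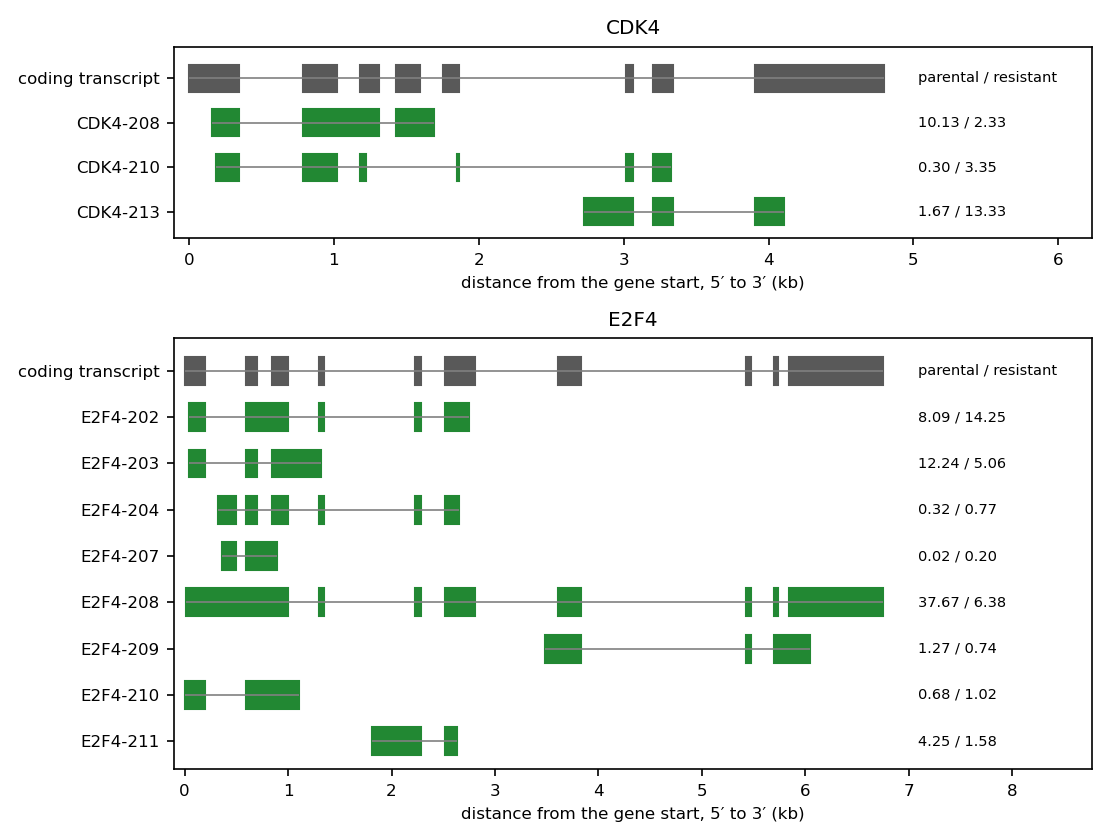
Exons (boxes) of the principal coding transcript (grey) and of the listed transcripts (green) of CDK4 and E2F4, by distance from the gene start in kb, with the listed values of the parental and resistant library at the right. A green box that bridges a gap between grey boxes is a kept intron. In CDK4, CDK4-208 at the 5′ side is higher in the parental library, and CDK4-213 at the 3′ side is higher in the resistant library. CDK4-210 also starts at the 5′ side but is higher in the resistant library, at 3.35 against 0.298, with a parental count of 0.

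**Figure D4:**
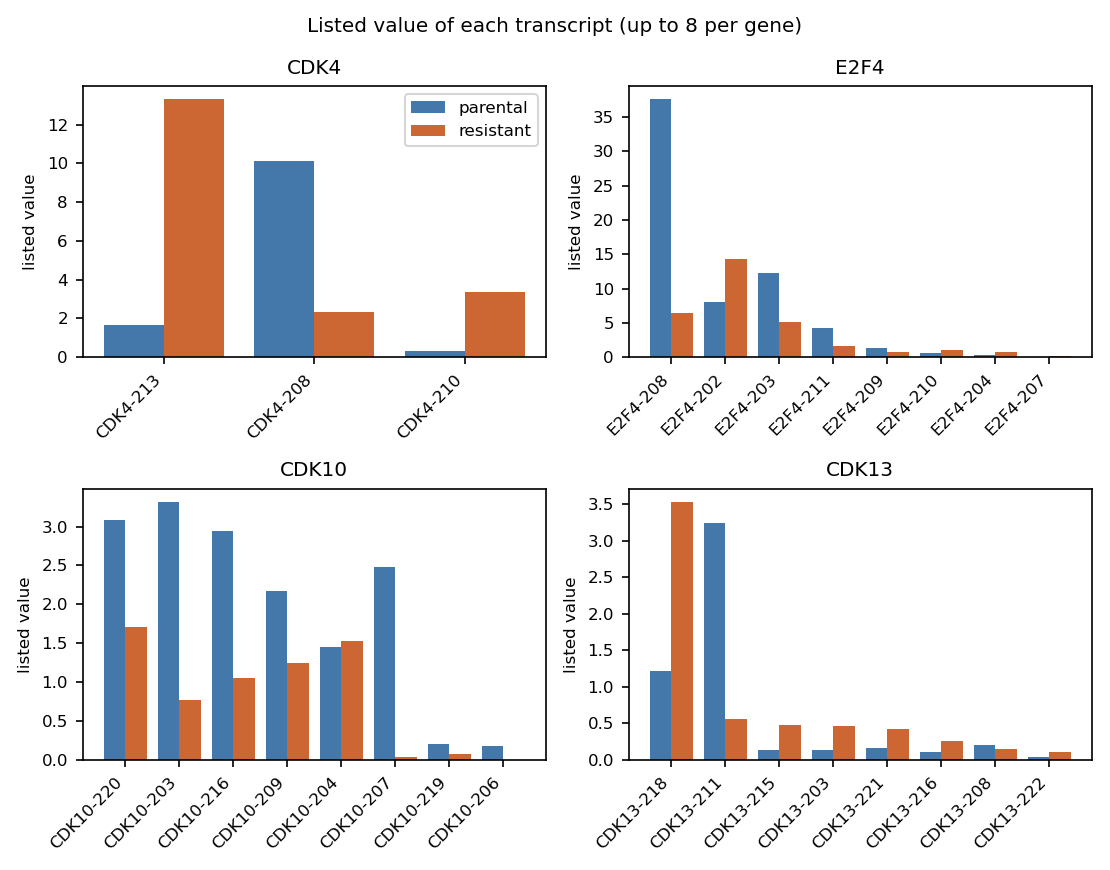
Listed values (linear axis) of up to 8 transcripts of CDK4, E2F4, CDK10 and CDK13 in the parental (blue) and resistant (orange) library. The order of the bars turns over between the libraries for CDK4-213 and CDK4-208 and for CDK13-218 and CDK13-211, while most CDK10 transcripts are lower in the resistant library.

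CDK13 showed the same contrast as CDK4 with little difference in its sum. CDK13-211, at chr7:39987599-39999386 toward the 5′ end, was at 0.563 in the resistant library against 3.24 in the parental one (−1.44). CDK13-218, at chr7:40078414-40095462 at the 3′ end, was at 3.53 and 1.22 (1.03). Of the CDK13 value, 53.6 percentage points moved, more than in 93.8% of genes. Both transcripts lie clear of exons of other genes.

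The CDK10 transcripts differed mostly one way. CDK10-203 was at 0.769 in the resistant library against 3.32 in the parental one (−1.29). CDK10-207, which keeps intron 7 whole and ends in intron 8, was at 0.0318 and 2.48 (−1.76), with counts of 10 and 1110. CDK10-204, which keeps introns 7 and 8 whole, was at 1.52 and 1.45 (0.044). The 3 further CDK10 transcripts with a mean of at least 1 were lower in the resistant library, from −0.94 to −0.50. Intron 7 thus stands in transcripts with very different ratios.

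For CCNE1, CCNE1-204, which keeps intron 8 whole at the 3′ end of the gene, was at 7.28 in the resistant library against 2.80 in the parental one (1.12), with counts of 877 and 489. CCNE1-207, at the 5′ end, was at 1.58 and 0.910 (0.43). Both were higher in the resistant library, and CCNE1-204 held 82.2% and 75.5% of the gene's value. The authors' deposited table gives log2 fold changes of 1.09 and 0.52 for them. CDK11A-212 was the last of the 7 higher transcripts, at 1.78 and 0.320 with a parental count of 0, and 75.5% of its exonic bases overlap another annotated gene on the same strand.

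Position along the gene went with direction among the members. Of the 45 transcripts, 20 had their midpoint in the first 50% of the gene, of which 1 was at least 2-fold higher and 6 were at least 2-fold lower in the resistant library, with a median log2 ratio of −0.42. In the other 25, 6 were higher and 1 was lower, with a median of 0.13. Over all genes the split was weak: 11.2% higher and 6.80% lower among 2575 transcripts of the first 50%, and 13.5% and 7.62% among 3044 of the rest, with medians of 0.13 and 0.20. The 7 lower transcripts came from 4 genes (CDK4, CDK10, CDK13 and E2F4), transcripts of a gene are not independent of each other, and several lie near the boundary: E2F4-208 among the lower ones at 50.1%, and E2F2-202 and RBL2-206 among the higher ones, both at 53.8%.

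**Figure D5:**
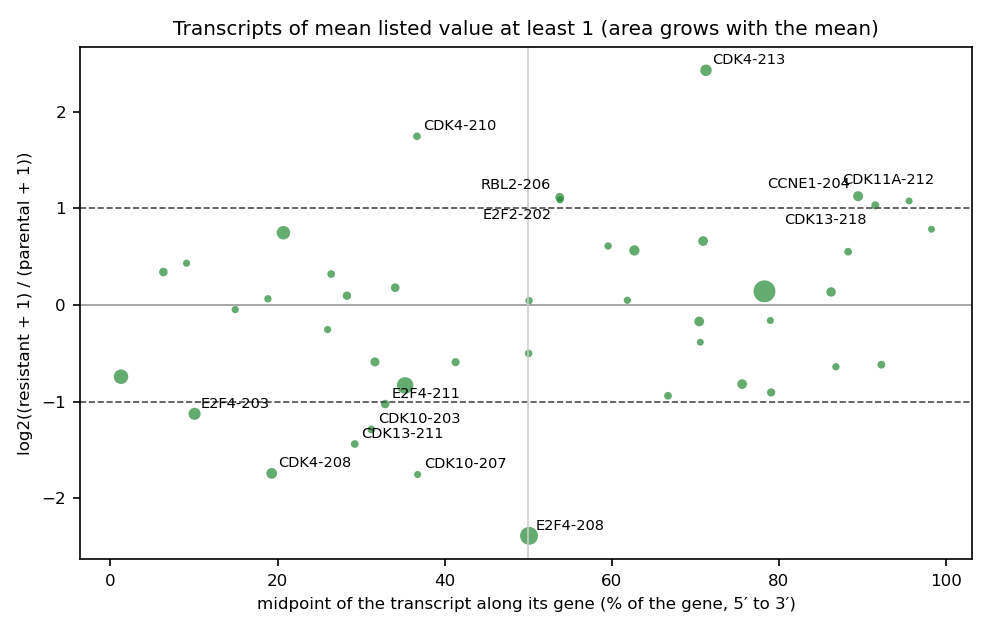
Log2 ratio of the 45 member transcripts with a mean listed value of at least 1 against the midpoint of each along its gene (percent, 5′ to 3′), with area growing with the mean value. Dashed lines mark 2-fold, and transcripts beyond them are named. The lower ones lie left of or at the middle, and 6 of the 7 higher ones lie right of it.

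Promoter sequence of the members was read from RefSeq on GRCh38.p14, from 250 bases before to 50 bases after the gene start, and was found for 48 of the 55. An E2F motif (TTTCCCGC, TTTCGCGC, TTTGCCGC or TTTGGCGC on either strand) stood in 6 of the 48 (12.5%) and in 3.33% of 27305 promoters in all. Among expressed genes it stood in 4 of 26 members (15.4%) and in 6.17% of the 4243 promoters of genes expressed here. The SP1 box GGGCGG stood in 81.3% of the members and 44.6% of all promoters, and in 88.5% of the expressed members and 72.4% of the promoters of expressed genes. The mitotic CHR element TTTGAA stood in 14.6% of the members and 15.4% of all promoters, and in 11.5% of the expressed members and 8.77% of the promoters of expressed genes. The E2F form TTTCCCGC and the SP1 box read on the other strand share letters, so 1 stretch can match both, and a match is a description of the sequence.

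The 4 expressed members with an E2F motif were E2F2, CDK10, TFDP1 and CDK1. The motif began 42, 48 and 120 bases before the start in E2F2, CDK10 and TFDP1, and 19 bases after it in CDK1. Their log2 ratios were 1.09, −1.18, −0.71 and −0.43, so genes with the motif differed in both directions. The E2F2 ratio rests on E2F2-202, at chr1:23516359-23519396, with its midpoint at 53.8% of the gene. These ratios are therefore not measures of output from the promoters. The promoters of the 2 genes with the motif that lay past 2-fold are shown with the motif in capitals.
E2F2, chr1:23531184-23531483, minus strand: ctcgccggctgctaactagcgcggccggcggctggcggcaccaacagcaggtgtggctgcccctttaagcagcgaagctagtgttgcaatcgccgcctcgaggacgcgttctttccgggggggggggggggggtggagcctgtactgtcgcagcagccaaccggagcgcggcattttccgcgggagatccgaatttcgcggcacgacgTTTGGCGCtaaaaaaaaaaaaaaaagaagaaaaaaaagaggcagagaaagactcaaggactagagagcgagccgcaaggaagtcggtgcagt
CDK10, chr16:89686439-89686738, plus strand: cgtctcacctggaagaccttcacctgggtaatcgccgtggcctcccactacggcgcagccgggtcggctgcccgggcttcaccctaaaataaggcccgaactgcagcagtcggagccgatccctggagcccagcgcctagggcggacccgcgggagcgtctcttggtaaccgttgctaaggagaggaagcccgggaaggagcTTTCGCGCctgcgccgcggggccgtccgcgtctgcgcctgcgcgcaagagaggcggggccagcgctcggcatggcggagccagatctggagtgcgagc

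A list of 107 other genes of the pathway, made of CDK partners, ubiquitin ligases of the cell cycle, RB cofactors and targets of E2F and MuvB, was set beside the members. Of these, 91 were listed and 62 expressed, with 30 ratios above 0 and 32 below, and a median of −0.018. At least 2-fold higher were 4 and at least 2-fold lower were 4 of the 62, beside 8.50% and 4.37% of all expressed genes, whose median was 0.16 with 38.1% of ratios below 0. The 25 expressed E2F and MuvB targets had 9 ratios above 0 and 16 below, with a median of −0.19. Higher were ANAPC16, a subunit of the anaphase-promoting complex, at 3.67 in the resistant library against 0.514 in the parental one, the CDK2-binding gene CDK2AP1 at 4.13 and 1.19, the thymidylate synthase gene TYMS at 13.2 and 5.09, and the spindle checkpoint kinase gene BUB1 at 21.3 and 9.86. Lower were UBE2S, which extends ubiquitin chains for that complex, at 0.893 and 4.12, its subunit gene ANAPC7 at 4.09 and 11.0, the replicative helicase gene MCM7 at 60.5 and 151.5, and the cytokinesis gene PRC1 at 8.65 and 20.8. The complex and the E2F targets thus held genes on both sides. The transcript class behind these sums was not tabulated, so they are not read as mRNA levels.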

How the data were processed

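Total RNA of SKOV3 cells was sequenced in 2 libraries, 1 parental and 1 olaparib-resistant. The submitters' processing notes name the build mm10 and the tools HISAT2 and StringTie, whose release numbers are not given in the sources used here. However, the deposited table holds human identifiers: 217 of 219 member transcripts were found in GENCODE release 29 (GRCh38), all 217 with the same start and end. The authors deposited a normalized signal per transcript and library (the listed value, unit not named, per the file headers), a log2 fold change, and a raw and an adjusted p-value from a test that the header does not name. Only the log2 fold change of theirs is quoted.

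Sequencing depth is unknown. Each deposited log2 fold change of a member transcript can be written as log2 of a ratio of whole counts. Each count is divided by a constant (0.114 resistant, 0.136 parental) before 1 is added to it. Where no count was 0, more than 1 pair can fit, and the pair nearest to listed value times locus length was taken. These pairs are the counts given. In 37 member transcripts (16.9%, beside 22.3% of all) 1 count was 0 although a value above 0 was listed there. The 151 member transcripts with a resistant count over 20 agreed within 0.3 (log2) with listed value times locus length, introns included. For pairs without a 0 this agreement follows in part from the choice of the pair, so it is no check of the counts. The deposited log2 fold changes lie at a common offset of −0.28 from the ratio of listed values, and 19.2% of member transcripts, beside 22.7% of all, differed from it by over 1.

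Values were summed per gene symbol with pandas 2.3.3 (Python 3.11.15). The symbol sums of CDK14 and CDKL3 include a transcript named as an overlapping one. Pseudocount, expression minimum and threshold were 1, 1 and 2-fold. Introns were those of the principal coding transcripts, at least 40 bases long. The ratios and the calls of counts of 0 were checked on simulated data. The search for count pairs started there from the true counts, so it could not test the choice among fitting pairs. Named were each expressed member, the core cell cycle members below that, transcripts past 2-fold or leading in those members, and pathway genes past 2-fold; other low members are named as background, and 1 is not reported here. The members, lists and rules were chosen with earlier results of these data known. Alternatives were another pseudocount, filter, scale, transcript choice and treatment of counts of 0.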

Additional observations from a re-analysis of the deposited data

How the results depend on the processing

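With 1 library per group the values below have no replicate check. The count of members at least 2-fold higher (2 as reported) was 5 with a pseudocount of 0.1, 0 with a pseudocount of 5, 1 of 13 with a mean of at least 5 (12.3% of all such genes), 0 with the resistant values rescaled to a median ratio of 0, and 6 of 21 with the transcript of largest mean alone (12.1% of 4108 genes). All expressed genes moved likewise under the pseudocounts, to 16.6% and 1.80% higher. The count at least 2-fold lower (2) was 0 with a pseudocount of 5 and 1 with the transcript of largest mean alone. The median log2 ratio of members turned to −0.042 after the rescaling, which sets that of all expressed genes to 0 by construction. With no filter on low values, with discordant transcripts left out, or with values at a count of 0 set to 0, the counts were 2, 2 and 3 higher and 2 lower in each. Of 174 ratios of single members under the alternatives, 167 moved by less than 1.5-fold. E2F2 was at 1.93 and 0.38 with pseudocounts of 0.1 and 5. The transcript of largest mean alone gave −0.82 for CCNL2, −0.59 for CDK10, 1.03 for CDK13, 2.43 for CDK4 and −2.39 for E2F4. CDK7 was at 0.025 with discordant transcripts left out and TFDP2 at −0.076 with its largest transcript alone. Except where construction is stated, the cause was not tested. No paired analysis was possible because each group holds 1 library.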

Other observations

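Other genes that work with the members were listed with values on both sides of 0. Of the replicative helicase subunits besides MCM7, MCM5 was at 19.99 in the resistant library against 27.4 in the parental one, MCM4 at 3.38 and 4.93, and MCM2 at 2.21 and 3.35, while MCM3 was at 1.91 and 1.34. These 4 lay within 2-fold. MNAT1, the assembly factor of the CDK-activating kinase, was at 6.501 and 4.15, the same direction as CCNH and the opposite one to CDK7. PKMYT1, a kinase that inhibits CDK1, was at 4.23 and 6.83, and WEE1, which has the same role, at 1.88 and 1.67. Of the chromatin partners of RB proteins, RBBP7 was at 4.28 and 2.09, ARID4B at 4.83 and 2.55, HDAC2 at 6.69 and 4.10, HDAC1 at 3.86 and 2.99 and RBBP4 at 3.81 and 4.12. FOXM1, a transcription factor of mitotic genes, was at 1.02 and 1.60. Each of these genes was described after its value was seen.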
